A study of Homo sapiens with 12 samples.

Results

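The genes described here are 40 genes of the lysosome and of autophagy, chosen by name from the 60448 genes of a read-count table and compared over 4 siRNA groups of 786-O cells. 786-O is a human cell line derived from clear cell renal cell carcinoma (ccRCC). The 12 RNA-seq libraries comprised 3 of cells transfected with a control siRNA (siNC), 3 with siRNA against GABPA (siGABPA), 3 with siRNA against GPD1L (siGPD1L) and 3 with siRNA against BRD9 (siBRD9), all by transient transfection and all in medium with 10% FBS. GABPA is an ETS family transcription factor, GPD1L a homologue of cytosolic glycerol-3-phosphate dehydrogenase, and BRD9 a bromodomain protein of a SWI/SNF chromatin remodelling complex. The series asks about the role of these genes in renal cancer progression. Which GABPA siRNA entered the sequenced cells and how long the cells were treated are not given in the sources used here.

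Lysosomes are acidified organelles in which hydrolases such as cathepsins and glycosidases break down protein, glycan and lipid, while the vacuolar ATPase (V-ATPase) pumps protons into the lumen. Autophagy delivers cytoplasm to them: ULK1 and the BECN1 lipid kinase complex start the autophagosome, the ATG5, ATG7, ATG12 and ATG16L1 conjugation system attaches ATG8 proteins (MAP1LC3B, GABARAPL1, GABARAPL2) to its membrane, and receptors such as SQSTM1 (p62) bring cargo. TFEB, TFE3 and MITF, the MiT/TFE transcription factors, bind E-boxes in many lysosomal and autophagy promoters, and mTORC1 on the lysosome surface keeps them out of the nucleus when nutrients are plentiful. Rearrangements of TFE3 and TFEB define particular renal carcinomas, while 786-O is a line of the clear cell type.

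Every member was found once by name, and all 40 passed the filter on low counts in each of the 6 comparisons. The siNC libraries held 21419987, 21691030 and 24469305 counts. Deeper on average, the siGABPA libraries held 27363062, 26976132 and 26395629, those of siGPD1L 27440715, 28650340 and 27755441, and those of siBRD9 29999290, 19499090 and 22070520. No member had fewer than 193 counts in any library (MCOLN1), and the highest count was 80276 (PSAP). The median coefficient of variation of the members over the 3 siNC libraries was 3.11%. The targets themselves moved with their siRNA. GABPA was at 44.5, 51.2 and 42.9 CPM (counts relative to library size, with TMM scaling over all 12 libraries) in siNC and 16.9, 14.3 and 15.3 CPM in siGABPA. GPD1L went from 19.6 ± 0.658 CPM (SD, n = 3) in siNC to 6.65 ± 0.793 CPM (SD, n = 3) in siGPD1L, and BRD9 from 101 ± 1.90 CPM (SD, n = 3) to 25.3 ± 2.30 CPM (SD, n = 3) in siBRD9. GABPA was also called lower in siGPD1L and siBRD9, with log2 fold changes of -0.85 and -0.75 against -1.57 in siGABPA.

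Markers of the labelled cell type were present. PAX8, a renal lineage transcription factor, was at 226 CPM in siNC, CDH6 at 199.6 CPM and KRT8 at 1035 CPM. The levels of these markers moved with the siRNA. The 8 renal markers summed to 2898 to 2955 CPM in siNC, 1984 to 2001 CPM in siGABPA, 2387 to 2468 CPM in siGPD1L and 2543 to 2576 CPM in siBRD9, the most abundant being KRT8 in siNC and siGABPA and VIM in the others. By the calls defined below, 3, 3 and 2 of them were lower in siGABPA, siGPD1L and siBRD9 and 1 was higher in each, with CDH6 at log2 fold changes of -0.75, -1.97 and -1.76 and CA12 at 0.67, 1.16 and 1.48. The 11 leukocyte markers bear on CTSS, CTSZ, GRN and LIPA, which macrophages also express strongly. They summed to 0.514 to 0.808 CPM in siNC, 0.670 to 0.858 CPM in siGABPA, 1.20 to 1.30 CPM in siGPD1L and 0.768 to 1.13 CPM in siBRD9, and TYROBP, AIF1, CD163, CD3E and MS4A1 had 0 counts in every library. CSF1R, the only one tested against siNC, was called higher in siGPD1L (21, 21 and 27 counts against 4, 4 and 4 in siNC, log2 fold change 2.01 ± 0.41). The 5 melanocyte markers, relevant to MITF, summed to 1.80 to 2.21 CPM in siNC, 3.65 to 4.28 CPM in siGABPA, 4.08 to 4.27 CPM in siGPD1L and 4.45 to 5.65 CPM in siBRD9, with TYR at 0 counts in every library. PMEL, the most abundant, was called higher in all 3 (1.06, 1.19 and 1.48), and in siGPD1L DCT was called higher and MLANA lower, both at 17 counts or fewer in those libraries. The part of any of these markers in the members' changes was not tested.

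The siNC libraries stood apart from all 9 targeting libraries. The first principal component, with 56.1% of the variance of log2 CPM, placed siNC between -77.2 and -75.1 and the targeting libraries between 11.4 and 37.5, while the second, with 16.4%, separated siGABPA from siGPD1L and siBRD9. A list of 20 interferon-stimulated genes also separated siNC from the targeting groups. In each comparison with siNC 19 of the 20 were called higher and 1 lower, with median log2 fold changes of 2.49 in siGABPA, 2.61 in siGPD1L and 2.32 in siBRD9. Their summed level was 3195 to 3286 CPM in siNC, 6805 to 6917 CPM in siGABPA, 6476 to 6602 CPM in siGPD1L and 5819 to 6185 CPM in siBRD9, the most abundant gene in the targeting groups being IFI6. The part of this difference in the changes described below was not tested. The 3 comparisons with siNC share its 3 libraries, and differences between targeting groups were therefore tested directly.

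A gene was called where edgeR's quasi-likelihood test gave an adjusted p (Benjamini-Hochberg, over all genes tested) below 0.05 and the change exceeded 1.5-fold either way. Among the 40 members, 7 were called higher and 4 lower in siGABPA against siNC, where 21.3% of all 16140 genes tested were called higher and 15.2% lower. In siGPD1L 7 members were called higher and 6 lower, against 20.4% and 15.5% of 15929 genes. In siBRD9 6 were called higher and 1 lower, against 16.7% and 11.5% of 15475 genes. The median log2 fold change of the members was 0.015, -0.016 and 0.080 in siGABPA, siGPD1L and siBRD9, beside 0.025, 0.015 and 0.00747 over all genes tested. The shares of members called were 17.5% higher and 10% lower for siGABPA, 17.5% and 15% for siGPD1L, and 15% and 2.5% for siBRD9. On the TMM scale each was below the share of all genes. Scaling by total counts only raised the median of all genes to 0.24, 0.18 and 0.13. It gave 14 members higher and 1 lower, 9 and 4, and 7 and 1, in the same order. Over all genes it called 4854 higher and 1387 lower, 4196 and 1572, and 3299 and 1213. With the same genes tested, the members' share called higher in siGABPA was then above that of all genes. Their share called lower in siGPD1L was about level with it, and the others were below. The fold changes below are relative to the TMM scale. The sequencing of siGABPA and its control is described as coming from 3 independent experiments. Nothing in the sources used here says so of siGPD1L and siBRD9, where p-values measure only the spread between libraries, which may be technical. The common coefficient of variation from edgeR was 0.0376, 0.0392 and 0.0394 in siGABPA, siGPD1L and siBRD9 against siNC. The independence of the siGABPA libraries rests on that description and was not tested. In all, 18 members (45.0%) were called in at least 1 comparison with siNC and 22 in none, beside 49.5% of the 15291 genes tested in all 3. No member was called in opposite directions. Called members shown by library below were chosen partly because their libraries did not overlap those of siNC. Such separation also held for most of the 40 members in each comparison with siNC, and does not set the shown genes apart.

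**Figure D1:**
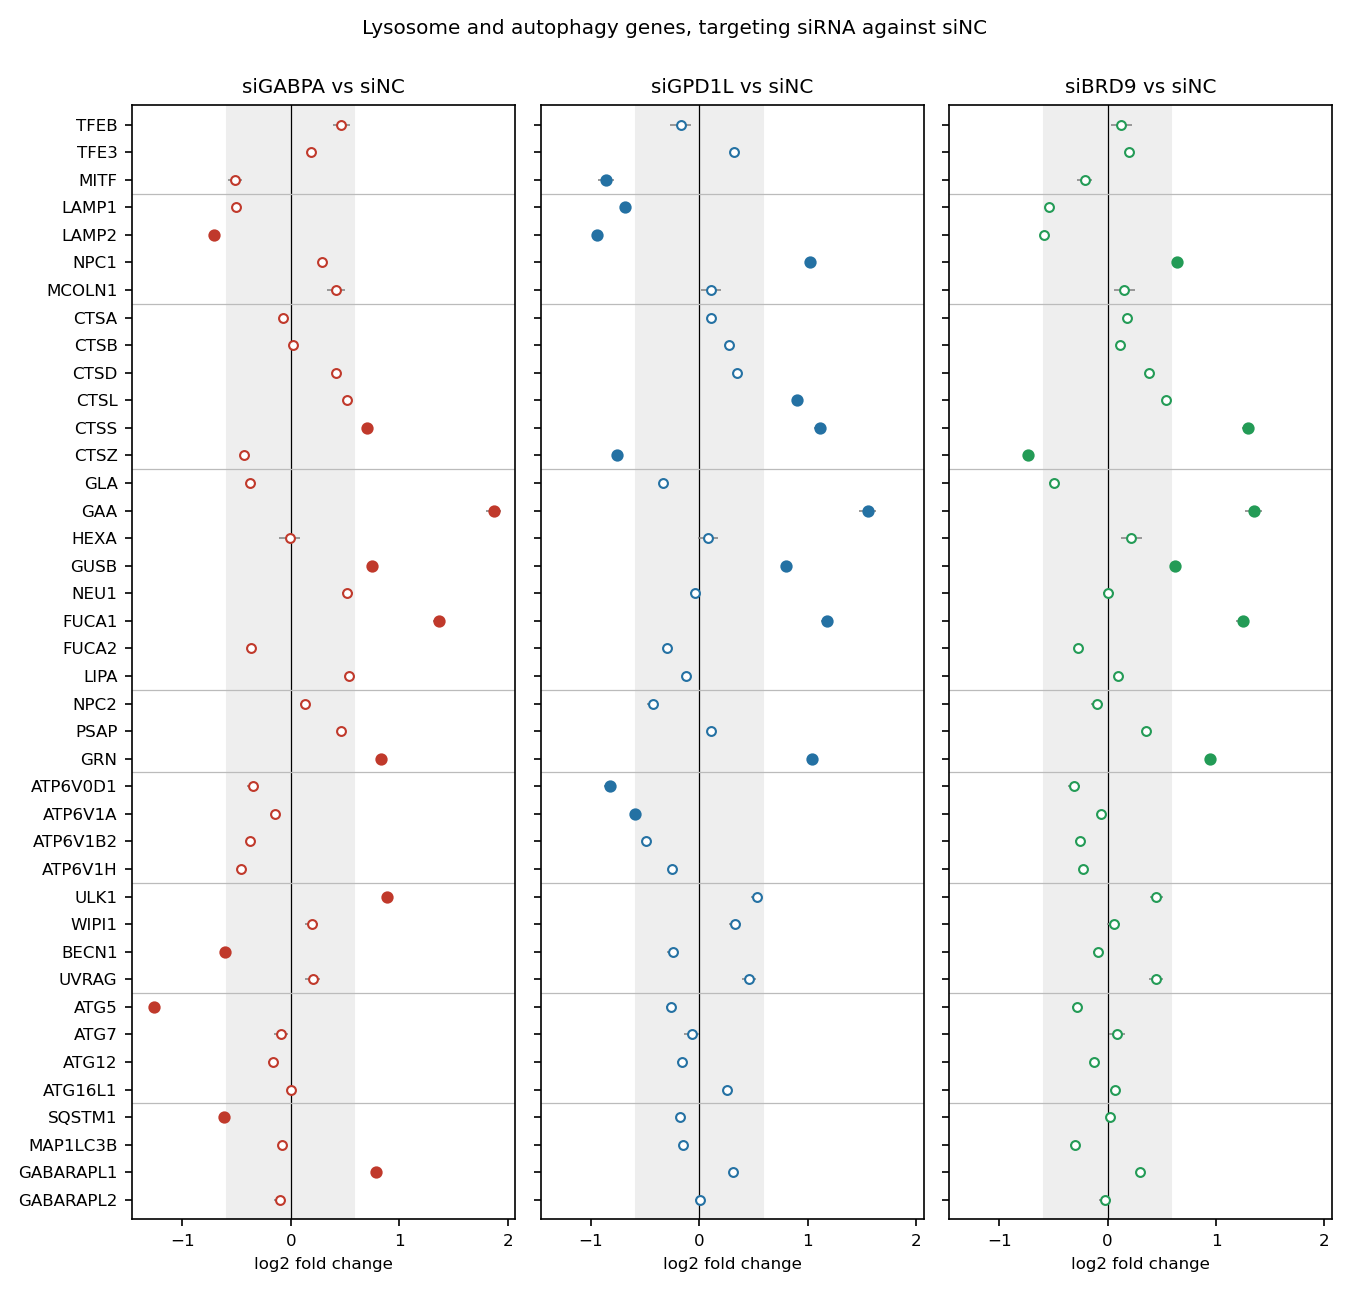
Log2 fold change (x axis) of each of the 40 members (y axis, grouped by role between the grey lines) in siGABPA, siGPD1L and siBRD9 against siNC, with bars of 1 SE (6 libraries per comparison). Filled points were called, and the grey band marks changes under 1.5-fold. GAA and FUCA1 lie far to the right in each panel, while most members stay within the band.

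Of the 3 MiT/TFE factors, MITF was called lower in siGPD1L alone, and TFEB and TFE3 were called in no comparison with siNC. MITF (melanocyte inducing transcription factor, chr3:69739435-69968337 on GRCh38, positions throughout as in GENCODE release 29) was at 30.2, 30.8 and 26.9 CPM in the siNC libraries, 20.6, 20.7 and 20.3 CPM in siGABPA, 14.7, 16.3 and 17.2 CPM in siGPD1L and 25.7, 23.8 and 25.6 CPM in siBRD9. All 3 siGPD1L libraries lay below every other library. The log2 fold change was -0.86 ± 0.075 (SE, adjusted p = 1.37e-09) in siGPD1L, -0.51 ± 0.065 in siGABPA and -0.21 ± 0.067 in siBRD9. Compared directly, MITF in siGABPA against siGPD1L measured 0.36, under 1.5-fold and not called. TFEB (chr6:41683978-41736259), regarded as the main activator of lysosome biogenesis, was at 10.8, 10.5 and 10.8 CPM in the siNC libraries, 14.8, 14.6 and 14.9 CPM in siGABPA, 10.3, 8.66 and 9.46 CPM in siGPD1L and 10.5, 12.7 and 11.8 CPM in siBRD9. Its highest values were those of siGABPA, where the 3 libraries lay above the rest, with a log2 fold change of 0.46 ± 0.077 (adjusted p = 3.54e-05), which is 1.38-fold and below the fold threshold. Under total counts only it was called (0.68). TFE3 (chrX:49028726-49043486) was at 130.00, 128 and 135 CPM in the siNC libraries, 145, 148 and 155 CPM in siGABPA, 168, 162 and 160.2 CPM in siGPD1L and 150.4, 149 and 149 CPM in siBRD9. All targeting libraries lay above siNC, with siGPD1L highest. Its log2 fold changes of 0.18 ± 0.036, 0.32 ± 0.037 and 0.20 ± 0.037 in siGABPA, siGPD1L and siBRD9 were all under 1.5-fold. Per kilobase of exon, TFE3 was the most abundant of the 3 in siNC, at 30.6 CPM per kb, against 4.08 for MITF and 1.89 for TFEB. In bulk RNA a lower level per cell and fewer expressing cells cannot be told apart, and mRNA levels do not show where these proteins lie in the cell.

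The E-box of these factors was searched in promoter sequences of the RefSeq annotation of GRCh38.p14, which span 250 bases before to 50 after each transcription start and were held for 31 members in 41 windows. The core CACGTG was found in 7 of the 41 windows (17.1%) and in 2548 of the 35116 windows of all genes (7.26%). The longer TCACGTGA, the centre of the CLEAR element of lysosomal promoters, which contains that core, was found in 5 (12.2%) and in 344 (0.98%). Both strands read the same for these palindromes. CCGGAAGT, an ETS site of the kind GABPA binds, was found on either strand in 2 (4.88%, in ATG7 and GABARAPL2, neither of which was called in any comparison) and in 1453 (4.14%). Only this exact form was searched, so ETS sites that differ from it, in called or uncalled members, were not counted. The stretches with E-boxes follow, since the members behind them were called higher, lower or not at all. Each is written 5′ to 3′ on the gene's own strand, with CACGTG in capitals. GAA is the member named by the rule for promoters (called in the same direction in all 3 comparisons with siNC and holding a searched motif), and the others were added after their values were seen. Of the other members called higher in all 3, FUCA1, GUSB and GRN held none of the 3 motifs in their windows, and CTSS had no window.
GAA, chr17:80101493-80101567, plus strand: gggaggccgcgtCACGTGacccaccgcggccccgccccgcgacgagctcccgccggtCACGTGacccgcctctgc
MCOLN1, chr19:7522571-7522627, plus strand: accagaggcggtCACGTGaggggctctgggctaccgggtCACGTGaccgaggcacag
CTSD, chr11:1763957-1763986, minus strand: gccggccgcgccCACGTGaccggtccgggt
NEU1, chr6:31862930-31862959, minus strand: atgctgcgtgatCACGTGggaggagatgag
CTSA, chr20:45891281-45891327, plus strand: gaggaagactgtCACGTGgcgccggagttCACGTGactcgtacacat
ATP6V0D1, chr16:67481199-67481228, minus strand: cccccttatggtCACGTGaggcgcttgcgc
LAMP1, chr13:113297035-113297255, plus strand: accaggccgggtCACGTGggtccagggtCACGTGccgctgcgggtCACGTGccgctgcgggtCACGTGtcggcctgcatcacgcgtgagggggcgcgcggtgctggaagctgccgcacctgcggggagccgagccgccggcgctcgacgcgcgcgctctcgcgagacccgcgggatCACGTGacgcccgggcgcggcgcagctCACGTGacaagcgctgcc

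The GAA E-boxes begin 76 and 31 bases before the start and both lie within TCACGTGA. LAMP1 held 6 E-boxes, which begin 192, 176, 159, 142, 28 and 1 bases before its start, and the last pair lies within the longer motif, as do both of MCOLN1 (41 and 14), the nearer of CTSA (42 and 25) and that of ATP6V0D1 (59). Those of CTSD (47) and NEU1 (126) were in the short form. Of these 7 genes GAA was called higher in each comparison with siNC, LAMP1 and ATP6V0D1 were called lower in siGPD1L, and the other 4 were called in none. A match describes the letters of the window and not binding, and ATP6V1A, ATP6V1B2, ATP6V1H, CTSB, CTSS, HEXA, LAMP2, PSAP and UVRAG had no window.

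**Figure D2:**
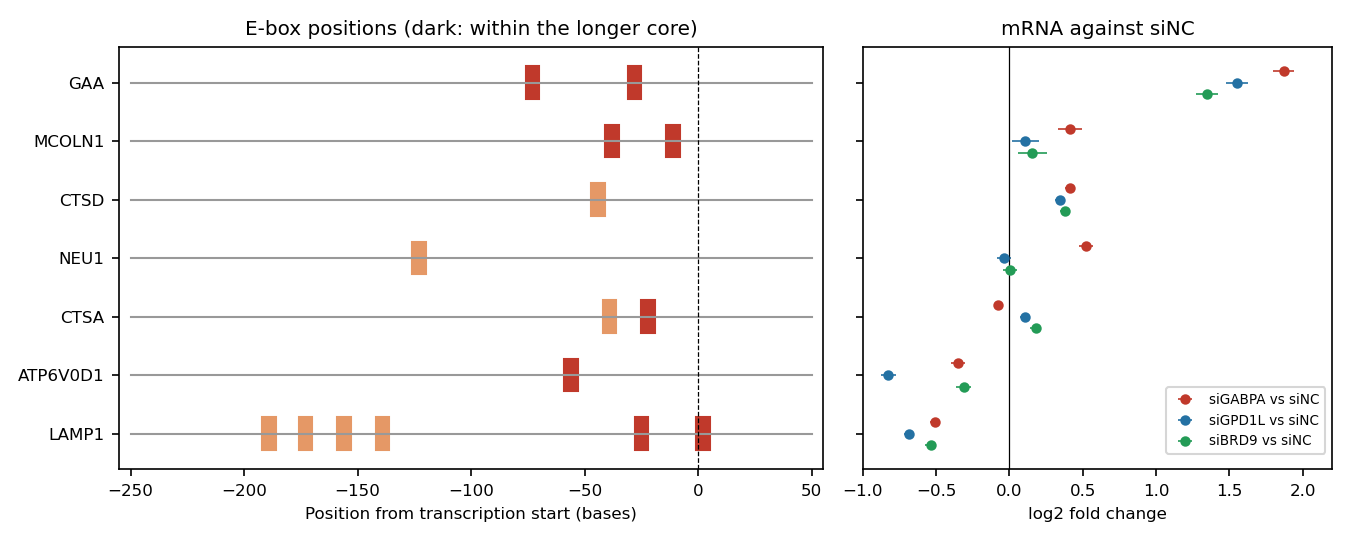
Left, E-boxes (blocks) in the promoter windows of 7 members, by position in bases from the RefSeq transcription start (dashed line), dark where the block lies within the longer motif. Right, log2 fold change of the same genes against siNC with bars of 1 SE (x axis): GAA lies at 1.35 to 1.87 and LAMP1, with 6 E-boxes, below 0 in each comparison.

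The glycosidase GAA had the largest increase of any member in each comparison with siNC, followed by the glycosidase FUCA1 in siGABPA and siGPD1L and by the cathepsin CTSS in siBRD9. GAA, acid alpha-glucosidase, which degrades lysosomal glycogen (chr17:80101556-80119879), was at 15.4, 13.0 and 12.1 CPM in the siNC libraries, 50.7, 48.7 and 48.1 CPM in siGABPA, 37.8, 40.9 and 39.1 CPM in siGPD1L and 34.2, 34.3 and 33.3 CPM in siBRD9. Every targeting library was at least 2.17 times the highest siNC library. The log2 fold changes were 1.87 ± 0.070, 1.55 ± 0.074 and 1.35 ± 0.078 (SE) in siGABPA, siGPD1L and siBRD9, with adjusted p of 8.89e-14, 6.61e-14 and 8.61e-12. FUCA1, the lysosomal alpha-L-fucosidase (chr1:23845077-23868294), was at 24.2, 23.1 and 23.4 CPM in the siNC libraries, 58.4, 60.1 and 63.6 CPM in siGABPA, 52.2, 51.6 and 55.5 CPM in siGPD1L and 57.6, 56.5 and 52.0 CPM in siBRD9. The 9 targeting libraries again lay above all of siNC, and those of siGPD1L and siBRD9 overlapped each other, with log2 fold changes of 1.36 ± 0.051, 1.18 ± 0.053 and 1.25 ± 0.057 and adjusted p of 8.12e-14, 2.54e-14 and 3.19e-13. GUSB, beta-glucuronidase, was called higher in all 3 as well (0.75, 0.80 and 0.62), but 11 annotated pseudogenes carry its name and reads could be shared with them.

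The other enzymes of this group were not called against siNC. Alpha-galactosidase A (GLA) had log2 fold changes of -0.37, -0.33 and -0.50 in siGABPA, siGPD1L and siBRD9, and the secreted fucosidase FUCA2 of -0.37, -0.30 and -0.27, both negative throughout, unlike FUCA1. HEXA, the alpha subunit of beta-hexosaminidase and the least abundant member per kilobase (0.835 CPM per kb in siNC), stayed between -0.012 and 0.22. Sialidase NEU1 (0.52, -0.039 and 0.00511) and lysosomal acid lipase LIPA (0.54, -0.12 and 0.10) had their highest level in siGABPA. LIPA was at 142, 133 and 136 CPM in the siNC libraries, 197, 200.1 and 199 CPM in siGABPA, 123, 122 and 130.5 CPM in siGPD1L and 146, 149 and 142 CPM in siBRD9. The siGABPA libraries were the highest and did not overlap those of any other group. LIPA shares 65 bases of exon, on the opposite strand, with the interferon-stimulated gene IFIT2 and 135 with an antisense transcript. IFIT2 was at 33.1, 63.8, 99.9 and 95.9 CPM in siNC, siGABPA, siGPD1L and siBRD9. The part of the shared exon bases in the LIPA counts was not tested.

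Among the cathepsins 2 were called higher and 1 lower in at least 1 comparison with siNC. CTSS, a cysteine protease best known from antigen-presenting cells (chr1:150730196-150765957), was at 25.7, 25.1 and 24.6 CPM in the siNC libraries, 40.2, 42.1 and 40.5 CPM in siGABPA, 56.5, 55.4 and 50.6 CPM in siGPD1L and 64.0, 59.8 and 58.9 CPM in siBRD9. No targeting library overlapped siNC, and siGABPA lay lowest of the targeting groups. The log2 fold changes were 0.70 ± 0.052, 1.11 ± 0.056 and 1.29 ± 0.054 (SE), with adjusted p of 9.95e-10, 1.31e-13 and 7.16e-14. CTSZ, a cysteine carboxypeptidase (chr20:58995185-59007247), was at 1272, 1236 and 1278 CPM in the siNC libraries, 935, 937 and 933 CPM in siGABPA, 719, 741 and 767 CPM in siGPD1L and 743, 751 and 759.6 CPM in siBRD9. It was lower than siNC in all 9 targeting libraries, with log2 fold changes of -0.76 ± 0.031 in siGPD1L and -0.74 ± 0.029 in siBRD9 (adjusted p = 3.45e-15 and 3.29e-14), and of -0.43 ± 0.024 in siGABPA, under 1.5-fold. CTSL was called higher in siGPD1L (0.90) and measured 0.52 and 0.54 in siGABPA and siBRD9, with 6 named pseudogenes in the annotation. CTSA (-0.076, 0.11 and 0.18), CTSB (0.024, 0.27 and 0.12) and the aspartic protease CTSD (0.41, 0.35 and 0.38) were not called. Under total counts only the sign of CTSA turned in siGABPA (0.14), and CTSD was called higher there (0.63). CTSZ and CTSD followed PSAP as the most abundant members per kilobase, at 619 and 134 CPM per kb in siNC against 623 for PSAP. A stretch of 1304 bases (41.7%) of CTSD exon is shared on the same strand with another annotated gene that had 0 counts in every library, and the part of this overlap in the CTSD level was not tested.

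Of the soluble cofactors, GRN was called higher in each targeting group, while PSAP and NPC2 were called in none. GRN, whose product progranulin is taken to lysosomes and cut into granulins (chr17:44345086-44353102), was at 161, 153 and 165 CPM in the siNC libraries, 279.9, 287 and 288 CPM in siGABPA, 328, 324 and 329.5 CPM in siGPD1L and 311, 308 and 298 CPM in siBRD9. The lowest targeting library was 115 CPM above the highest siNC library. Its log2 fold changes were 0.83 ± 0.033, 1.04 ± 0.035 and 0.95 ± 0.037 (SE), with adjusted p of 1.38e-13, 1.76e-16 and 2.18e-14. PSAP, the precursor of the saposins that present sphingolipids to hydrolases, measured 0.46, 0.11 and 0.35, and NPC2, which carries cholesterol in the lumen, 0.13, -0.43 and -0.10.

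The genes of lysosomal membrane proteins did not move together. LAMP1 and LAMP2, the major glycoproteins of that membrane, had lower levels with every targeting siRNA, and NPC1, which passes cholesterol out of the lysosome, had higher ones. LAMP2 (chrX:120427827-120469365) was at 395, 402 and 396 CPM in the siNC libraries, 241, 246 and 241 CPM in siGABPA, 201, 205 and 214 CPM in siGPD1L and 267, 263 and 260.2 CPM in siBRD9. The groups did not overlap, siGPD1L being lowest. The log2 fold changes were -0.71 ± 0.027, -0.94 ± 0.033 and -0.58 ± 0.032 (SE) in siGABPA, siGPD1L and siBRD9, called in the first pair (adjusted p = 1.15e-13 and 4.01e-16), while that of siBRD9 lay just under the threshold of 0.585. The siBRD9 change was called under RLE scaling (-0.5856), in DESeq2 (-0.5855) and with all 12 libraries in one fit (-0.59), and without siNC replicate 1, siNC replicate 3 or siBRD9 replicate 1 (-0.59, -0.59 and -0.60). Under total counts only the siGABPA call was lost (-0.50). LAMP1 (chr13:113297241-113323672) was at 322, 306 and 318 CPM in the siNC libraries, 218, 219 and 228 CPM in siGABPA, 193, 198 and 195 CPM in siGPD1L and 218, 209 and 218 CPM in siBRD9. Every targeting library lay below siNC, those of siGPD1L lowest. LAMP1 passed in siGPD1L (-0.68 ± 0.033, adjusted p = 9.47e-14), with -0.51 ± 0.031 and -0.54 ± 0.035 in siGABPA and siBRD9. Its call was lost under total counts only (-0.51). NPC1 (chr18:23506184-23586898) was at 230.01, 227 and 236 CPM in the siNC libraries, 278, 281 and 285 CPM in siGABPA, 470.4, 450.3 and 481 CPM in siGPD1L and 382, 367 and 323 CPM in siBRD9. All targeting libraries exceeded siNC, siGPD1L most. NPC1 was called higher in siGPD1L (1.02 ± 0.034, adjusted p = 1.43e-16) and siBRD9 (0.64 ± 0.047, adjusted p = 3.40e-10), and measured 0.28 ± 0.029 in siGABPA. MCOLN1, the TRPML1 cation channel, was not called (0.42, 0.11 and 0.16).

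The 4 V-ATPase members had negative fold changes in each comparison with siNC, except ATP6V1A when libraries were scaled by total counts only (0.069 in siGABPA and 0.067 in siBRD9), and their calls came from siGPD1L. ATP6V0D1, a subunit of the membrane-embedded V0 sector (chr16:67438014-67481237), was at 46.4, 44.5 and 43.5 CPM in the siNC libraries, 35.4, 35.5 and 34.3 CPM in siGABPA, 25.3, 25.0 and 25.1 CPM in siGPD1L and 36.0, 35.0 and 36.4 CPM in siBRD9. The siGPD1L libraries formed the lowest group, clear of the others, with a log2 fold change of -0.83 ± 0.053 (SE, adjusted p = 7.43e-12), against -0.35 ± 0.048 and -0.31 ± 0.052 in siGABPA and siBRD9. ATP6V1A, the catalytic subunit of the V1 sector, was called at the edge of the threshold in siGPD1L (-0.59) and measured -0.15 and -0.059 elsewhere. Without siNC replicate 1, siGPD1L replicate 1 or siGPD1L replicate 2 it missed the fold threshold (-0.55, -0.58 and -0.55). The same held under total counts only (-0.42) and with either other filter on low counts (-0.56 and -0.58). ATP6V1B2 (-0.38, -0.49 and -0.26) and ATP6V1H (-0.46, -0.25 and -0.22), also of V1, were not called.

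Of the 4 members of autophagy initiation and nucleation (ULK1, BECN1, WIPI1 and UVRAG), ULK1 was called higher and BECN1 lower, both in siGABPA. ULK1, the kinase at the head of the initiation complex (chr12:131894651-131923167), was at 50.3, 50.3 and 58.1 CPM in the siNC libraries, 96.1, 101 and 98.2 CPM in siGABPA, 77.9, 75.6 and 75.3 CPM in siGPD1L and 77.2, 67.5 and 69.6 CPM in siBRD9. The siGABPA libraries lay above all others. The log2 fold change was 0.89 ± 0.050 (SE, adjusted p = 1.93e-11), with 0.53 ± 0.052 and 0.45 ± 0.060 in siGPD1L and siBRD9, both under 1.5-fold. Without siNC replicate 3 ULK1 also passed in siGPD1L (0.60). BECN1 (beclin 1, chr17:42810134-42833350) was at 42.2, 41.5 and 42.9 CPM in the siNC libraries, 27.4, 28.4 and 27.5 CPM in siGABPA, 35.7, 35.0 and 35.7 CPM in siGPD1L and 39.1, 39.9 and 39.3 CPM in siBRD9. The siGABPA libraries lay below all others. BECN1 measured -0.61 ± 0.050 in siGABPA (adjusted p = 4.46e-09), -0.25 ± 0.049 in siGPD1L and -0.088 ± 0.050 in siBRD9. The call was lost under total counts only (-0.39) and with at least 10 counts in every library (-0.55). BECN1 shares 300 bases of exon with PSME3 on the opposite strand, and the log2 fold changes of PSME3 against siNC were -0.98, -1.02 and -0.98. The part of the shared exon in the BECN1 counts was not tested, since the strand setting of the counting is not given in the sources used here. WIPI1, a phosphoinositide-binding protein of the early membrane (0.19, 0.33 and 0.056), and UVRAG, a partner of beclin 1 (0.20, 0.46 and 0.44), were not called.

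ATG5 had the largest decrease of any member, and it was called in siGABPA. ATG5 (chr6:106045423-106325791), which is joined to ATG12 to form the ligase that lipidates ATG8 proteins, was at 69.1, 74.7 and 67.7 CPM in the siNC libraries, 29.1, 29.5 and 29.5 CPM in siGABPA, 56.6, 60.5 and 58.8 CPM in siGPD1L and 57.8, 59.6 and 55.3 CPM in siBRD9. The highest siGABPA library was at 53.4% of the lowest of the other 9. The log2 fold change was -1.26 ± 0.048 (SE, adjusted p = 1.0e-13), that is 41.6% of siNC, against -0.26 ± 0.047 and -0.28 ± 0.048 in siGPD1L and siBRD9. Its partners in conjugation were not called: ATG12 measured -0.17, -0.16 and -0.12, ATG7, the E1-like enzyme, -0.092, -0.071 and 0.090, and ATG16L1, the membrane-binding subunit, 0.00526, 0.26 and 0.071. Under total counts only the sign turned for ATG12 in all 3 comparisons and for ATG7 in siGABPA and siGPD1L. ATG12 shares 378 bases (4.25%) of exon with AP3S1 on the opposite strand, at 158 CPM in siNC (-0.66, -0.64 and -0.59 against siNC). ATG7 shares 1596 bases (18.1%) with VGLL4, also on the opposite strand, at 57.9 CPM in siNC (0.16, -0.14 and -0.21). The part of either overlap in the counts was not tested.

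Of the cargo receptor and the 3 ATG8 proteins, SQSTM1 was called lower and GABARAPL1 higher, both in siGABPA. SQSTM1 (chr5:179806398-179838078) was at 564, 543 and 587 CPM in the siNC libraries, 363, 369 and 375 CPM in siGABPA, 504, 494 and 496 CPM in siGPD1L and 573, 560.00 and 568 CPM in siBRD9. Its siGABPA libraries were the lowest, and siBRD9 overlapped siNC. The log2 fold change was -0.61 ± 0.031 (SE, adjusted p = 3.93e-12) in siGABPA, -0.18 ± 0.033 in siGPD1L and 0.018 ± 0.033 in siBRD9. The call was lost under total counts only (-0.40) and with at least 10 counts in every library (-0.56). A stretch of 1582 bases (20.7%) of SQSTM1 exon overlaps MRNIP on the opposite strand, which was far less abundant (27.4 CPM in siNC and 29.7 CPM in siGABPA). Another 105 bases (1.37%) overlap MGAT4B, also on the opposite strand, which was at 357, 248, 274 and 288 CPM in siNC, siGABPA, siGPD1L and siBRD9, with a log2 fold change of -0.53 in siGABPA. The part of either overlap in the SQSTM1 counts was not tested. GABARAPL1, an ATG8 protein of the GABARAP subfamily (chr12:10212458-10223130), was at 153, 150.3 and 148 CPM in the siNC libraries, 250.04, 264 and 264 CPM in siGABPA, 194, 178 and 186 CPM in siGPD1L and 186, 191 and 175 CPM in siBRD9. All siGABPA libraries exceeded the rest, with a log2 fold change of 0.78 ± 0.032 (adjusted p = 2.50e-13), and 0.31 ± 0.037 and 0.30 ± 0.039 in siGPD1L and siBRD9. MAP1LC3B (LC3B) measured -0.083, -0.15 and -0.30 and GABARAPL2 -0.10, 0.00655 and -0.024, neither being called, and under total counts only the sign turned for MAP1LC3B in siGABPA and siGPD1L and for GABARAPL2 in siGABPA and siBRD9.

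**Figure D3:**
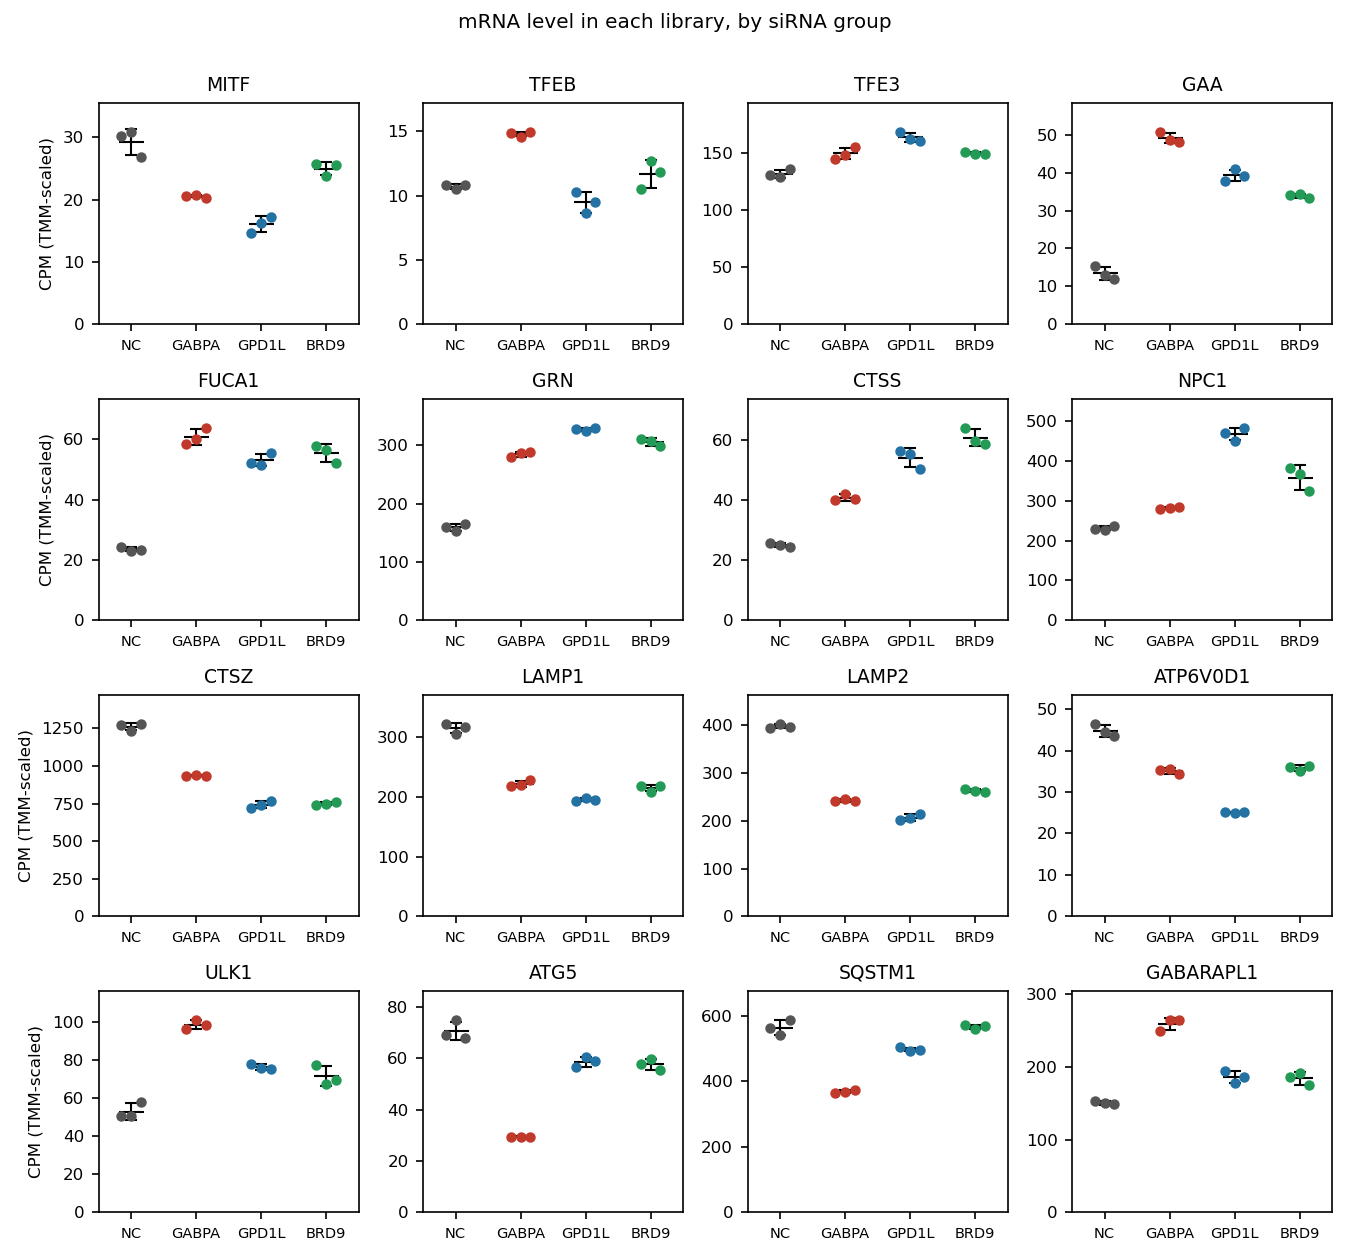
TMM-scaled CPM (y axis, from 0) of 16 members in each of the 12 libraries (points), by siRNA group (x axis), with the mean and 1 SD of 3 libraries in black. The top and middle rows hold factors and lysosomal genes, and in the bottom row siGABPA stands apart from the other 3 groups in ULK1, ATG5, SQSTM1 and GABARAPL1.

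To ask which of these changes differed between targeting siRNAs, the targeting groups were compared with each other. In siGABPA against siGPD1L, 2 members were called higher and 2 lower, beside 8.54% and 6.9% of the 16548 genes tested. TFEB (0.64 ± 0.084 SE, adjusted p = 4.07e-07) and LIPA (0.67 ± 0.034, adjusted p = 1.08e-14) were higher in siGABPA, while ATG5 (-0.99 ± 0.047, adjusted p = 3.20e-15) and NPC1 (-0.73 ± 0.032, adjusted p = 4.95e-16) were lower. The TFEB call was lost without siGPD1L replicate 2, at 0.58. NEU1 passed without siGABPA replicate 1 or siGPD1L replicate 3 (0.61 and 0.59), and NPC2 without siGABPA replicate 2 (0.59). In siGABPA against siBRD9, 0 members were called higher and 2 lower, beside 8.52% and 5.74% of 16357 genes. At an unadjusted p below 0.05 in edgeR, 15 members were higher, all 15 also at an adjusted p below 0.05 but under 1.5-fold. DESeq2 and limma voom likewise called 0 higher past 1.5-fold. The lower members were ATG5 (-0.97 ± 0.050, adjusted p = 2.96e-14) and SQSTM1 (-0.62 ± 0.030, adjusted p = 1.05e-14). SQSTM1 missed the fold threshold under total counts only (-0.54). In siGPD1L against siBRD9, 0 were called higher and 1 lower, MITF (-0.64 ± 0.073, adjusted p = 6.30e-08), beside 4.01% and 2.91% of 16240 genes. At an unadjusted p below 0.05 in edgeR, 11 members were higher, all 11 also at an adjusted p below 0.05 but under 1.5-fold. Both other tools called 0 higher past 1.5-fold. Without siGPD1L replicate 1 MITF missed the fold threshold, at -0.58.

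ATG5 was thus the member called in both comparisons of siGABPA with another targeting group. For ULK1 (0.37 and 0.46 in siGABPA against siGPD1L and siBRD9) and GABARAPL1 (0.48 and 0.50) the direct differences were below 1.5-fold, with adjusted p of 3.48e-09, 2.94e-09, 1.05e-11 and 1.97e-11. BECN1 measured -0.35 ± 0.052 and -0.50 ± 0.053. GAA, called higher in every targeting group, measured 0.33 ± 0.048 against siGPD1L and 0.54 ± 0.050 against siBRD9. For the calls of siGPD1L, ATP6V0D1 measured -0.51 ± 0.057 against siBRD9, LAMP2 -0.35 ± 0.035, LAMP1 -0.14 ± 0.035, CTSL 0.36 ± 0.034 and CTSZ -0.016 ± 0.034, all under 1.5-fold. In that comparison ATP6V1A (-0.53) and NPC1 (0.39) were under 1.5-fold as well. CTSS was lower in siGABPA than in siBRD9, with a log2 fold change of -0.57 ± 0.048, just under the threshold, and it passed without siBRD9 replicate 2, siBRD9 replicate 3 or siGABPA replicate 2 (-0.59, -0.60 and -0.60).

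**Figure D4:**
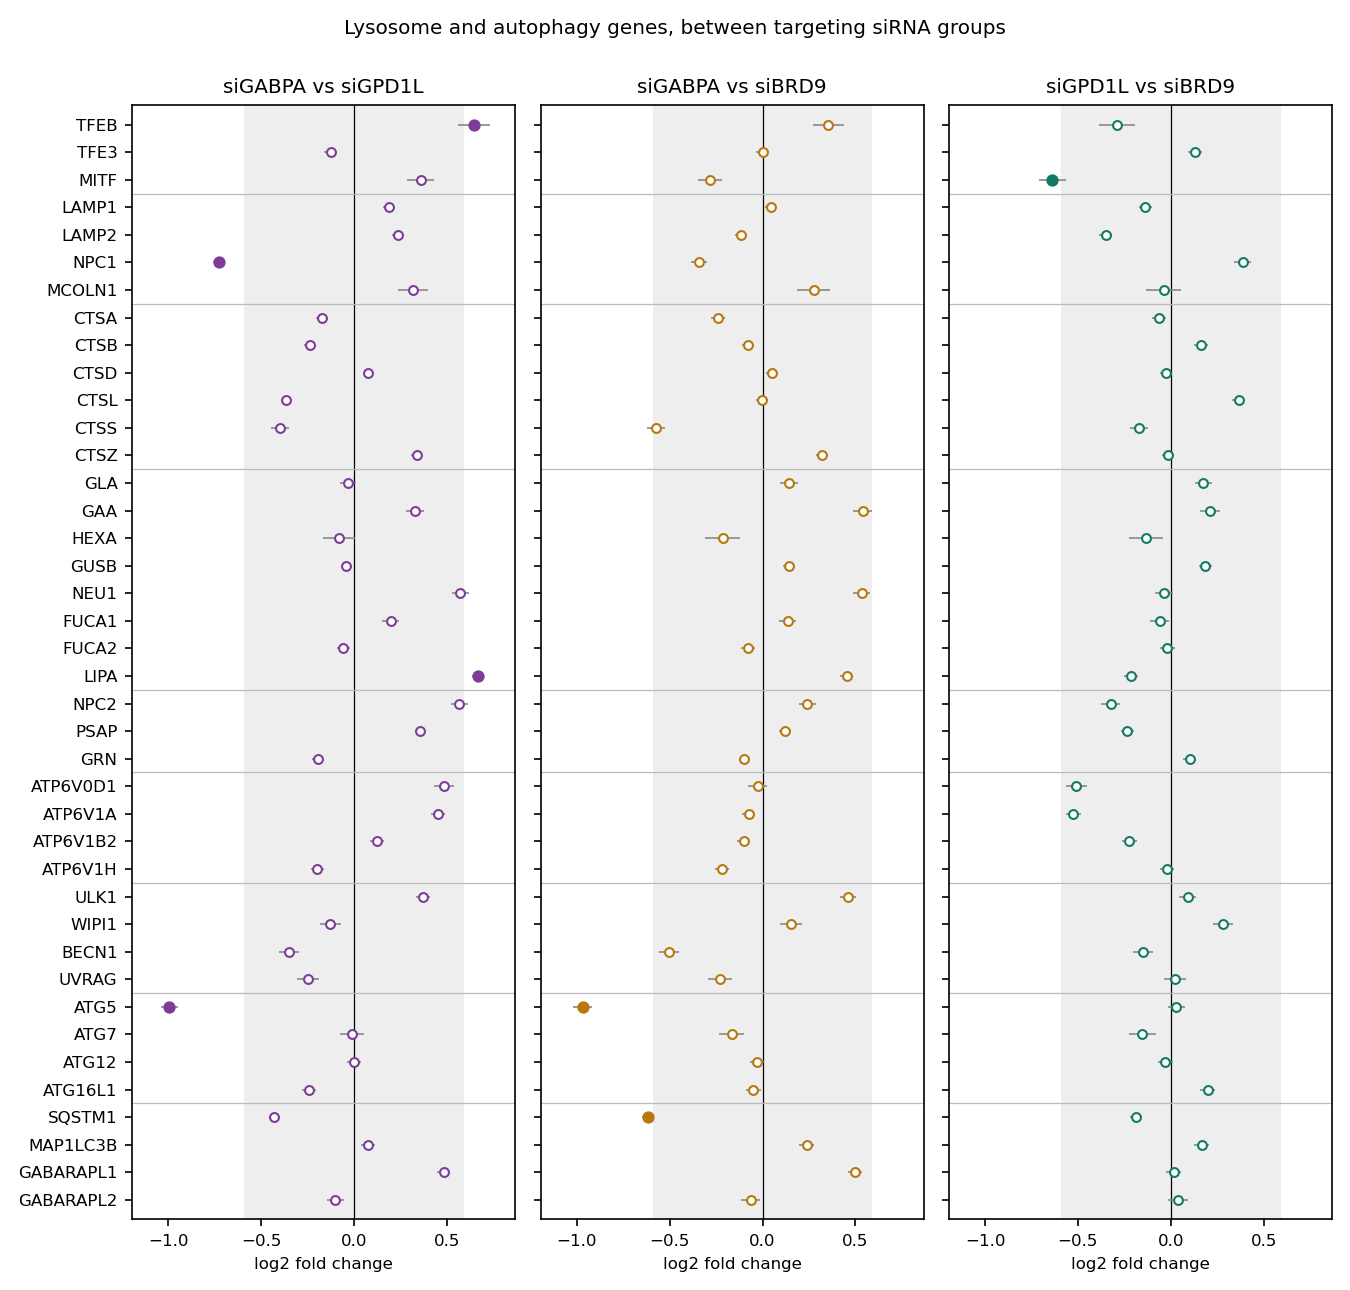
Log2 fold change (x axis) of the 40 members (y axis, grouped by role) between pairs of targeting groups, with bars of 1 SE; filled points were called. ATG5 lies near −1 in both comparisons of siGABPA, and 1 member, MITF, is filled in siGPD1L against siBRD9.

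Beyond the 40 members, 152 other genes of the pathway in 9 lists were examined, of which 145 were tested. The siGABPA comparison called 30 of them higher and 16 lower, that of siGPD1L 22 and 22, and that of siBRD9 22 and 12, with medians of -0.017, -0.00134 and -0.038. In percent of the genes tested these were 20.7% and 11.03% for siGABPA, 15.2% and 15.2% for siGPD1L, 15.2% and 8.28% for siBRD9, each below the share of all genes given above. The 34 further hydrolases and activators tested had 10 higher and 4 lower in siGABPA, against 8 and 4 in siGPD1L and 7 and 2 in siBRD9. Their shares called higher, 29.4%, 23.5% and 20.6%, lay above the 21.3%, 20.4% and 16.7% of all genes, and their shares called lower below those of all genes. SGSH and IDUA, which degrade heparan sulfate, were called higher in all 3 (1.91, 2.07 and 1.80 for SGSH and 1.11, 1.67 and 1.40 for IDUA), as was the tripeptidyl peptidase TPP1 (0.89, 0.78 and 0.78). ARSB, arylsulfatase B, fell in all 3 (-1.87, -1.77 and -1.72). GGH, gamma-glutamyl hydrolase, was called lower in siGABPA (-1.20, -0.24 and -0.12), and ACP5, an acid phosphatase, higher in siGPD1L and siBRD9 (0.42, 1.57 and 1.26), at 9, 12 and 8 counts in siNC. The GM2 activator GM2A (-0.71, -0.67 and -0.35) was called lower in siGABPA and siGPD1L, SUMF1 in siGPD1L (-0.71) and cathepsin C (CTSC) in siBRD9 (-0.93).

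Of 18 further membrane proteins tested, 3 were called higher and 2 lower in siGABPA, against 2 and 4 in siGPD1L and 1 and 3 in siBRD9. The shares called lower were 11.1%, 22.2% and 16.7%, above the 15.5% and 11.5% of all genes in siGPD1L and siBRD9. The shares called higher were below those of all genes in all 3. LAMP3, a LAMP of dendritic cells that interferon induces, was called higher in all 3, from 4, 3 and 1 counts in siNC. The siGABPA libraries held 61, 77 and 61 LAMP3 counts, those of siGPD1L 106, 124 and 93, and those of siBRD9 99, 66 and 43. OSTM1, the partner of the chloride transporter CLCN7, fell in all 3 (-1.67, -0.88 and -1.15), as did TMEM192 (-0.70, -0.84 and -0.80). The sialin gene SLC17A5 was called higher in siGABPA and siGPD1L (0.61, 0.72 and 0.28) and the channel gene TMEM175 higher in siGABPA (0.77, 0.23 and 0.069). In the mannose 6-phosphate list of 9 genes, which tags hydrolases for the lysosome, 1 was called higher and 2 lower in siGABPA, against 1 and 4 in siGPD1L and 0 and 1 in siBRD9, where 3 were higher at an unadjusted p below 0.05 in edgeR. Those 3 also had an adjusted p below 0.05 but were under 1.5-fold. The shares called lower were 22.2%, 44.4% and 11.1%, above the 15.2% and 15.5% of all genes in siGABPA and siGPD1L and below the 11.5% in siBRD9. GNPTAB, the phosphotransferase that makes the tag, fell in all 3 (-0.96, -1.05 and -0.74), and the receptor IGF2R in siGABPA and siGPD1L (-0.80, -0.61 and -0.35). The sorting receptor gene SORT1 (-0.93) and the adaptor gene GGA2 (-0.77) were called lower and GGA1 (0.64) higher in siGPD1L, and GGA3 higher in siGABPA (0.81).

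Of 13 further V-ATPase genes tested, 3 were called higher and 2 lower in siGABPA, against 0 and 3 in siGPD1L and 0 and 1 in siBRD9. At an unadjusted p below 0.05 in edgeR, 3 were higher in siGPD1L and 3 in siBRD9, all also at an adjusted p below 0.05 but under 1.5-fold. In siGABPA the shares called higher (23.1%) and lower (15.4%) were about level with the 21.3% and 15.2% of all genes. The share called lower in siGPD1L (23.1%) was above the 15.5% of all genes, and the others were below. ATP6V1C1 (-1.12, -0.65 and -0.55) and ATP6V1D (-0.82, -0.76 and -0.42) were called lower in siGABPA and siGPD1L, and ATP6V0E1 in siGPD1L and siBRD9 (-0.43, -0.75 and -0.64). ATP6V0E2 (0.93, 0.25 and 0.24), ATP6V0A1 (0.68, -0.13 and 0.11) and the accessory subunit ATP6AP1 (0.65, 0.46 and 0.47) were called higher in siGABPA. ATP6V0C, GABARAP and CLN3 were near 0 in these counts (at most 0.379 CPM as a group mean) and were not tested. Their exons are shared on the same strand with read-through genes (57.5% and 14.6% of ATP6V0C exon bases, 30.5% of GABARAP and 25.2% of CLN3), so that their low counts cannot be read as low expression.

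**Figure D5:**
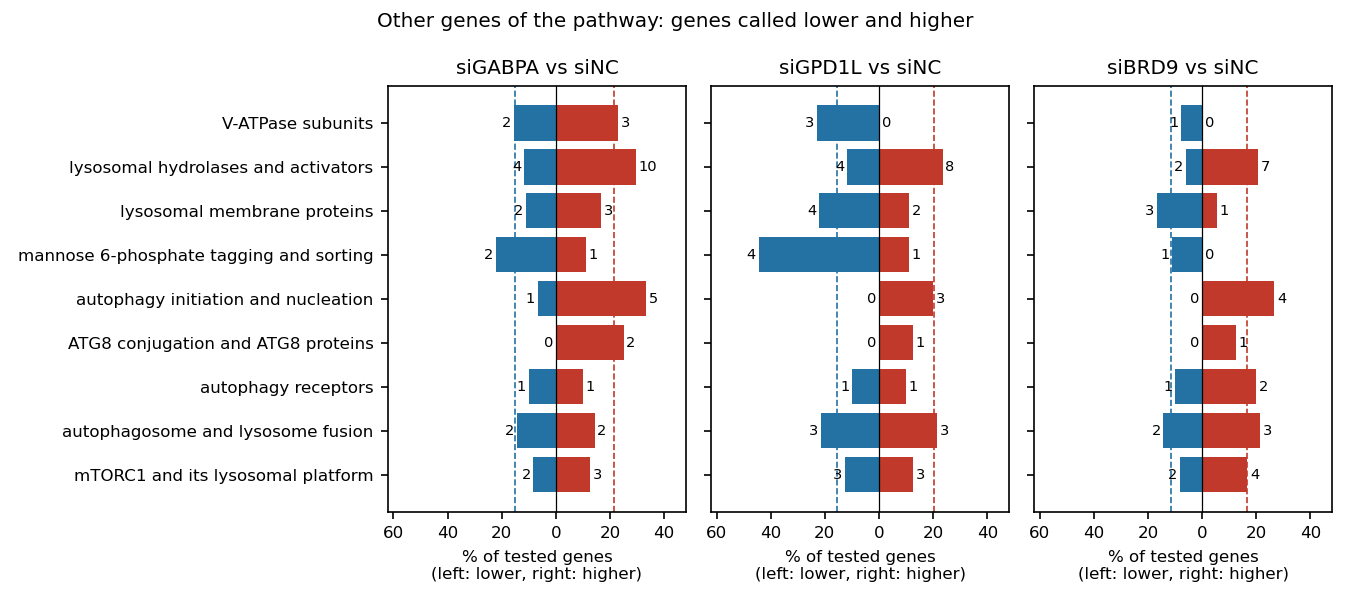
Share of the tested genes of each of 9 lists (y axis) called higher (right, red) or lower (left, blue) against siNC, in % (x axis), with the number of genes beside each bar. Dashed lines give the same shares over all genes tested, which 10 of the 27 bars passed on the higher side and 8 of 27 on the lower side. Several passed by less than a gene. The longest are those of mannose 6-phosphate genes lower in siGPD1L (4 of 9) and of autophagy initiation genes higher in siGABPA (5 of 15).

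Among 15 further genes of autophagy initiation, 5 were called higher and 1 lower in siGABPA, against 3 and 0 in siGPD1L and 4 and 0 in siBRD9. Their shares called higher were 33.3%, 20% and 26.7%, above the 21.3% and 16.7% of all genes in siGABPA and siBRD9 and below the 20.4% in siGPD1L. At an unadjusted p below 0.05 in edgeR, 3 were lower in siGPD1L and 3 in siBRD9, all also at an adjusted p below 0.05 but under 1.5-fold. ULK2, a relative of ULK1 (0.75, 0.88 and 0.60), and RB1CC1, the FIP200 scaffold of the ULK complex (0.69, 0.77 and 0.80), were called higher in all 3. The transmembrane protein ATG9A (0.95, 0.53 and 0.57) and ZFYVE1 (0.90, 0.52 and 0.45) passed in siGABPA, the lipid transfer protein ATG2A in siGABPA and siBRD9 (0.83, 0.58 and 0.62), and WDR45 in siGPD1L and siBRD9 (0.52, 0.59 and 0.68). PIK3R4, a subunit of the BECN1 complex, was called lower in siGABPA (-0.63). Of 8 tested genes of ATG8 conjugation, ATG16L2, a paralogue of ATG16L1, was called higher in all 3 (0.94, 1.72 and 1.13) and the protease ATG4D in siGABPA (0.67), and none was called lower, with 3, 3 and 4 lower at an unadjusted p below 0.05 in edgeR. Those lower genes also had an adjusted p below 0.05 but were under 1.5-fold. Of the 10 receptors, NBR1 was called higher in all 3 (0.68, 0.67 and 0.70), the mitophagy receptor BNIP3L in siBRD9 (0.75), and NCOA4, the ferritin receptor, lower in all 3 (-0.77, -1.24 and -0.78). The shares called higher were past that of all genes, by less than a gene, for conjugation in siGABPA (2 of 8) and for receptors in siBRD9 (2 of 10). They were below it otherwise.

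In the fusion list of 14 genes, 2 were called higher and 2 lower in siGABPA, against 3 and 3 in siGPD1L and 3 and 2 in siBRD9. Those shares were 14.3%, 21.4% and 21.4% higher and 14.3%, 21.4% and 14.3% lower. Over all genes they were 21.3%, 20.4% and 16.7% higher and 15.2%, 15.5% and 11.5% lower. The fusion shares in siGPD1L and siBRD9 were thus past those of all genes by less than a gene, and those in siGABPA were below. The tethering factors PLEKHM1 (1.0, 0.79 and 0.84) and EPG5 (0.74, 1.05 and 1.03) were called higher in all 3, and the SNARE protein YKT6 lower (-0.68, -0.76 and -0.72). RUBCN, a negative regulator, was called higher in siGPD1L and siBRD9 (0.29, 0.62 and 0.72), the HOPS tether subunit gene VPS18 lower in both (-0.50, -0.82 and -0.66), VPS33A lower in siGPD1L (-0.72) and VPS41 lower in siGABPA (-0.71). The mTORC1 list of 24 genes had 3 higher and 2 lower in siGABPA, against 3 and 3 in siGPD1L and 4 and 2 in siBRD9. None of these shares was above that of all genes. Its inhibitors DDIT4 (REDD1, 2.37, 2.72 and 2.67) and SESN2 (sestrin 2, 1.55, 1.11 and 1.0) were called higher in all 3, and SESN1 in siGABPA (0.72). TBC1D7, a subunit of the TSC complex (-1.15, -0.63 and -0.62), and AKT1S1, the PRAS40 subunit (-0.67, -1.0 and -0.69), were called lower in all 3. The Rag GTPase gene RRAGA was called higher in siGPD1L and siBRD9 (0.048, 0.88 and 1.13), and MTOR itself lower in siGPD1L (-0.76 ± 0.039 SE), with -0.41 and -0.47 in siGABPA and siBRD9.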

How the data were processed

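Whole-number read counts per gene, deposited by the authors as 1 table for 12 libraries with no normalization, were used. The study's methods name featureCounts v1.5.0-p3, while the submitters' processing notes list HISAT2, HTSeq, DESeq2 and hg38 without versions. Strand setting and annotation release are not given in the sources used here. Of 60448 identifiers, 56868 were in GENCODE release 29. The 40 members and the lists (9 lists of other pathway genes, renal, leukocyte, melanocyte and interferon-stimulated genes) were chosen with earlier results of these data known.

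Each pair of groups was fitted on its own 6 libraries in R 4.3.3 with edgeR 4.0.16 (TMM, filterByExpr, quasi-likelihood test, Benjamini-Hochberg adjustment over all genes tested), and genes with FDR below 0.05 and fold change above 1.5, the study's thresholds, were called. An SE is the size of the log2 fold change divided by the square root of F. In simulated siGABPA against siNC counts of 16081 genes, 198 of 200 changed genes were recovered with 7 wrong calls. The planted changes were all past the fold threshold and evenly split between higher and lower. The simulation therefore does not cover genes near that threshold or the many and uneven changes of the real counts. CPM used TMM over 12 libraries. Since an exact permutation test of 3 against 3 libraries cannot go below p = 0.1, none is printed. Named genes are the MiT/TFE factors, in each comparison with siNC up to 5 called members per direction by fold change without overlap between groups, members called between targeting groups, members never called, up to 3 called genes per list, direction and comparison, and the siRNA targets. Results of some genes that this rule or these lists name are not reported here. LIPA values per library were added after the data were seen. Alternatives were RLE scaling, total counts only, DESeq2 1.42.0, limma 3.58.1 voom, other filters, all 12 libraries in one fit, a replicate block and leaving out each library.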

Additional observations from a re-analysis of the deposited data

Results flagged for a closer look

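The effects of a pair of siRNAs differed by more than 1.5-fold in a direct test in 7 cases among the members, and the reasons for these differences were not tested. Smaller differences were common. At an adjusted p below 0.05 alone in edgeR, 18 members were higher and 13 lower in siGABPA against siGPD1L. The counts were 15 and 14 in siGABPA against siBRD9, and 11 and 13 in siGPD1L against siBRD9. The 7 cases were as follows. Against siGPD1L, siGABPA was higher in TFEB (log2 difference 0.64) and LIPA (0.67) and lower in NPC1 (-0.73) and ATG5 (-0.99). Against siBRD9, siGABPA was lower in ATG5 (-0.97) and SQSTM1 (-0.62). Against siBRD9, siGPD1L was lower in MITF (-0.64). TFEB and LIPA had log2 fold changes of opposite sign against siNC in siGABPA (0.46 and 0.54) and siGPD1L (-0.17 and -0.12), none of which was itself called, and under total counts only the negative values turned to 3.83e-04 and 0.049.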

How the results depend on the processing

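Scaling decided the most. Total counts only gave 14 members higher and 1 lower in siGABPA, 9 and 4 in siGPD1L, 7 and 1 in siBRD9, 4 and 2 in siGABPA against siGPD1L, 2 and 1 in siGABPA against siBRD9, and 0 and 1 in siGPD1L against siBRD9. Over all genes this scaling called 4854 higher and 1387 lower, 4196 and 1572, 3299 and 1213, 1555 and 1014, 1746 and 734, and 747 and 414. It turned the sign of 18 values against siNC and of 13 between targeting groups, none of them called. Of these, 7 had an adjusted p below 0.05 under TMM, namely CTSA (0.14), ATP6V1A (0.069) and ATG12 (0.049) in siGABPA, LIPA (0.049), ATG12 (0.011) and MAP1LC3B (0.024) in siGPD1L, and ATG12 (0.00386) in siBRD9. The other 11 against siNC were HEXA, ATG7, MAP1LC3B and GABARAPL2 in siGABPA, TFEB, NEU1 and ATG7 in siGPD1L, and NPC2, ATP6V1A, BECN1 and GABARAPL2 in siBRD9. It also ended the calls of LAMP2, BECN1 and SQSTM1 in siGABPA, of LAMP1 and ATP6V1A in siGPD1L and of SQSTM1 in siGABPA against siBRD9. Calls gained were those of TFEB, MCOLN1, CTSD, CTSL, NEU1, LIPA and PSAP in siGABPA, ULK1 and UVRAG in siGPD1L, CTSL in siBRD9, NEU1 and NPC2 in siGABPA against siGPD1L, and GAA and NEU1 in siGABPA against siBRD9. The members' median became 0.23, 0.15 and 0.21, beside 0.24, 0.18 and 0.13 over all genes under the same scaling, and without 1 library it lay on either side of 0 in siGABPA (-0.00921 to 0.050), in siGPD1L (-0.044 to 0.00538) and in siGABPA against siGPD1L (-0.020 to 0.00867). The TMM factors were 0.908 to 0.918 in siNC and 1.0 to 1.07 elsewhere, and the 100 most abundant genes took 18.4% to 18.5% of counts in siNC and 14.9% to 16.3% elsewhere. Under the other alternatives 8 of 1680 values changed their call. With at least 10 counts in every library BECN1 (-0.55) and SQSTM1 (-0.56) were lost and LIPA (0.59) gained in siGABPA. LAMP2 was gained in siBRD9 under RLE scaling, DESeq2 and all 12 libraries in one fit. ATP6V1A was lost in siGPD1L with that filter and with none (-0.56 and -0.58). Leaving out 1 library changed 15 of 1440 values, and the counts of members called ranged from 11 to 11, 12 to 14 and 7 to 8 in siGABPA, siGPD1L and siBRD9, and from 3 to 5, 2 to 3 and 0 to 1 between targeting groups in the order above, the 0 being MITF without siGPD1L replicate 1. Same-numbered libraries did not deviate together (correlations -0.072 to 0.020, 0 of 18 over 0.1). With the number as a replicate block the counts were 11, 13, 7, 4, 2 and 1, as without it.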
